A study of Mus musculus with 2 samples.

Results

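The S100 proteins described here are S100a8, S100a9, S100a4, S100a6, S100a10 and S100a11, 6 genes taken by symbol from the 47729 genes of the deposited matrices. The other 13 symbols that begin with S100 are given at the end. The samples are 2 single-cell libraries of cultured mouse bone marrow, 1 per group. Both used femur marrow of C57BL/6NCrljOri mice, grown for 5 days with GM-CSF at 40 ng/mL, a growth factor for granulocytes, macrophages and dendritic cells. The library without coculture holds cells sorted as CD11b-high Ly6C-high. The coculture library holds cells sorted as CD11b-mid Ly6C-mid from marrow grown beneath inserts with 0.4 µm pores that carried human mesenchymal stromal cells (MSC), at 1 MSC to 5 marrow cells after 24 h of preincubation. RPMI1640 is named for the first culture and DMEM for the coculture. Coculture, sort gate, medium and library therefore differ together and cannot be told apart, and each comparison is between these 2 libraries. The labels do not say how many animals gave marrow to each library.

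S100 proteins are small calcium-binding proteins with a pair of EF-hand motifs, and most act as dimers. S100A8 and S100A9 pair as calprotectin, which fills much of the cytosol of neutrophils and occurs in monocytes. Once released, it binds metals that microbes need and signals through receptors such as TLR4. S100A9 is also a widely used marker of myeloid-derived suppressor cells. S100A4 and S100A6 bind cytoskeletal proteins and annexins. S100A10 forms a complex with annexin A2 at the plasma membrane, where it binds plasminogen, and S100A11 is a partner of annexin A1.

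Cells were used if they had 500 genes or more and no more than 10% mitochondrial counts, 1817 without coculture and 3005 with it. They hold 27784963 and 29089241 UMIs (unique molecular identifiers, each counting 1 captured transcript), with medians of 7016 and 6031 per cell. The libraries share 4 cell barcodes, of which 2 were among the cells used. Levels are CPM, the UMIs of a gene summed over cells and scaled to a common total. The libraries read transcript ends, so a level does not scale with gene length. Intervals are exact 95% intervals for counting error alone, and they understate the error of a gene whose UMIs sit in a small number of cells. No test was possible, as each group has 1 library. A gene was counted as higher or lower from a ratio of at least 2-fold, if it reached 10 CPM in either library. Transcripts of the gate genes were lower in the coculture library, with Itgam (CD11b) at 351 and 144 CPM and Ly6c2 at 344 and 96.9 CPM without and with coculture. These are RNA sums over all cells of a library, whose cell types differ, while the gates were set on surface protein. They are therefore no check of the sort.

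All 6 genes lie on mouse chromosome 3 in 2 blocks (GRCm38, GENCODE M21 annotation). S100a4 (ENSMUSG00000001020, chr3:90603771-90606045, plus strand) ends 6.84 kb before S100a6 (ENSMUSG00000001025, chr3:90612882-90624181, plus strand). S100a8 (ENSMUSG00000056054, chr3:90668978-90670035, plus strand) lies 22.6 kb from S100a9 (ENSMUSG00000056071, chr3:90692632-90695721, minus strand), and these 2 are read from opposite strands, toward each other. S100a11 (ENSMUSG00000027907, chr3:93520488-93526287, plus strand) and S100a10 (ENSMUSG00000041959, chr3:93555080-93564643, plus strand) form the other block, 28.8 kb apart, which begins 2825 kb beyond S100a9.

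The promoters are printed because S100a8 and S100a9 had nearly the same pattern over clusters while the other pairs nearest to each other did not. Entries were found for 5 of the 6 genes (RefSeq, GRCm38.p6). Each sequence runs on the gene's own strand from 100 bases before to 20 bases after the annotated RefSeq start, and capitals mark TATAAA, the core letters of a TATA box. The windows are chr3:90668971-90669090 for S100a8, chr3:90695702-90695821 for S100a9, chr3:90603670-90603789 for S100a4, chr3:90612794-90612913 for S100a6 and chr3:93520396-93520515 for S100a11.
S100a8: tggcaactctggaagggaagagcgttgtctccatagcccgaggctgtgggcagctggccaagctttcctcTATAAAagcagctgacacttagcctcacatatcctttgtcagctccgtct
S100a9: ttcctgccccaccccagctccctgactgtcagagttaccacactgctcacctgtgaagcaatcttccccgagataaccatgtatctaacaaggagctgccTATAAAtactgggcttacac
S100a4: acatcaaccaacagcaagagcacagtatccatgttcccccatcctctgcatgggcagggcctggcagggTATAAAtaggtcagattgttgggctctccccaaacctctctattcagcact
S100a6: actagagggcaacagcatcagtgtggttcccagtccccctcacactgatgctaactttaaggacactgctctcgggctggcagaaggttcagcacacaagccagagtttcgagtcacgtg
S100a11: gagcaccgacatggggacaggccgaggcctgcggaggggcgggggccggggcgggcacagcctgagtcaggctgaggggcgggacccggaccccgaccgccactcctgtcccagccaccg
Motifs were searched on both strands of the longer windows of 300 bases, 250 before and 50 after the start. TATAAA on the gene's own strand begins 30 bases before the start in S100a8 and 31 bases before it in S100a4. In S100a9 it begins at the annotated start itself. It was not found on that strand in the S100a6 and S100a11 windows, and 8.32% of all 32851 promoters of the same length hold it there. TTGNNNAA, a core of C/EBP sites, had 2 matches in S100a9 and 1 in S100a6, against 36.7% of all promoters with a match on either strand. GAGGAAG, a core of PU.1 sites, matched on the opposite strand of S100a8 and S100a4, against 13.6% of all promoters on either strand. S100a11 stood apart in composition, with 61.7% G and C and 15 CpG pairs, while the other 4 windows had 49.3% to 55.3% and 2 to 6 CpG pairs. The medians over all promoters were 52.7% and 7. A match describes the letters only.

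Over all cells, 4 of the 6 genes were lower in the coculture library and none was higher. Of 8668 genes at 10 CPM, 11.7% were lower and 12.7% higher by the same rule. The median log2 ratio of the 6 was -1.80, against 0.03 over all measured genes. Without coculture S100a8 was at 17552 CPM (17502 to 17601), and with it at 5997 CPM (5969 to 6025), 2.93-fold lower. S100a9 was at 23119 and 5571 CPM, 4.15-fold lower. The calprotectin genes together made up 4.07% of all UMIs without coculture and 1.16% with it. S100a9 was the more abundant of the pair in the first library and S100a8 in the second. S100a4 had the largest ratio of the 6, at 781 CPM (770.4 to 791) and 60.6 CPM (57.8 to 63.5), 12.9-fold lower. S100a6 was at 5565 and 1246 CPM, 4.47-fold lower. The annexin partners S100a10 and S100a11 were nearer in the 2 libraries, S100a10 at 643 and 493 CPM (log2 ratio -0.38, -0.41 to -0.35) and S100a11 at 717 and 655 CPM (log2 ratio -0.13, -0.16 to -0.10). With each cell weighted equally, these 2 ratios were 0.37 and -0.99. With TMM scaling the same 4 genes were lower, the median of all genes moved to -0.13, and 1262 genes were lower and 908 higher in place of 1010 and 1104. Bulk sums of this kind cannot tell fewer cells of a type from less RNA per cell, so the levels are next given by cluster.

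Cells were clustered with every S100, partner and regulator gene described here kept out, so the clusters were not made from the levels that follow. The neutrophil-like cells were 1094 without coculture and 509 with it. The cells without coculture were mainly in clusters 3, 4 and 5 (305, 652 and 136 cells), and those with coculture mainly in cluster 2 (476 cells) with 28 in cluster 5. Cluster 3 was led by Slfn1, Igf2bp2 and Asprv1, cluster 4 by Asprv1, Hp and Acta2, and cluster 5 by Ltf, Camp and Ngp, which encode granule proteins. Coculture cluster 2 was led by Arg1, Cxcl3 and Nos2, of which Arg1 and Nos2 encode arginine-consuming enzymes linked to suppressor cells. Macrophage-like cells were 569 without coculture and 1 with it, so they were not compared between the libraries. These counts depend on the clustering. At resolution 1.2 in place of 0.8 the macrophage-like cells were 584 and 113, and the neutrophil-like cells 1064 and 421. Whether coculture cluster 2 holds macrophage-like cells was not tested.

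**Figure D1:**
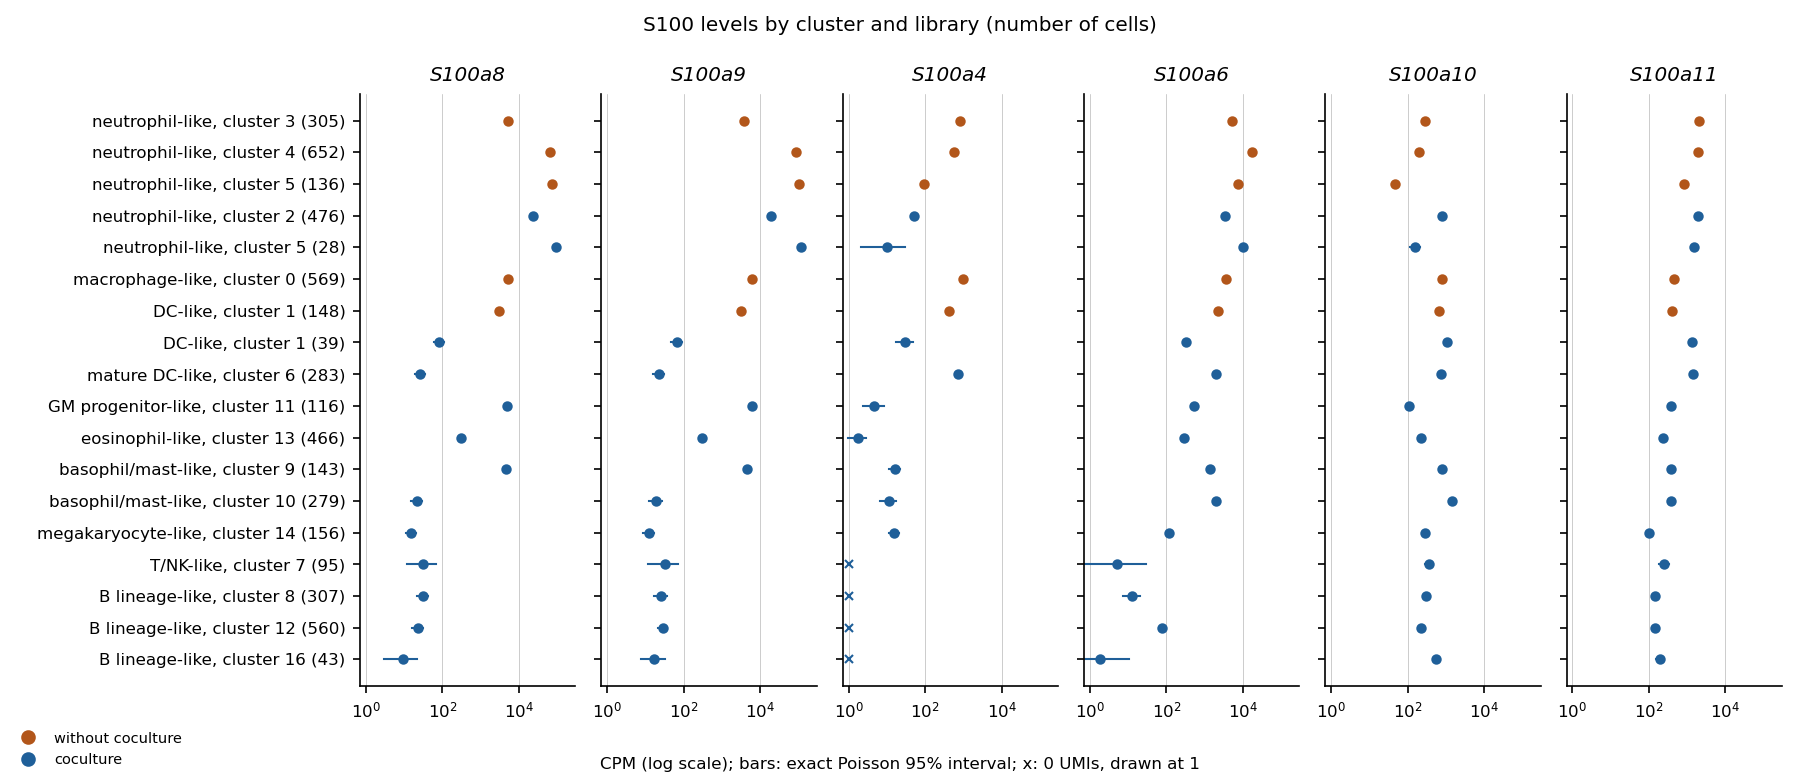
Level of each gene (CPM, log axis) in every cluster of each library, with exact Poisson 95% intervals, the number of cells in brackets, and crosses for 0 UMIs. S100a8 spans from 9.30 CPM in B lineage-like cluster 16 to 93699.9 CPM in the coculture cells of cluster 5, while S100a11 stays between 103 and 2025 CPM.

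S100a8 followed a steep order over clusters. Its highest level was in cluster 5, at 93699.9 CPM in the 28 coculture cells and 71234 CPM in the 136 cells without coculture. Cluster 4 came next at 63578 CPM and coculture cluster 2 at 23203 CPM (23073 to 23333). The macrophage-like cells (5303 CPM, 5269 to 5337) and neutrophil-like cluster 3 (5268 CPM, 5130.5 to 5408) did not differ beyond their counting intervals. The progenitor-like cells of cluster 11, led by the primary granule genes Elane, Prtn3 and Mpo, had 4857 CPM, basophil or mast cell-like cluster 9 had 4479 CPM and dendritic cell-like cells without coculture 3093 CPM. All other clusters were at or below 310 CPM, the value of the eosinophil-like cells.

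S100a9 had almost the same order. It was at 116958 CPM in the 28 coculture cells of cluster 5, 101928 CPM in cluster 5 without coculture, 85071 CPM in cluster 4 and 19049 CPM in coculture cluster 2. Progenitor-like cells (6106 CPM, 6007 to 6206) and macrophage-like cells (6042 CPM, 6006 to 6078) overlapped in their intervals. Cluster 3 was lower, at 3786 CPM. The gene therefore differed 22.5-fold between clusters 4 and 3, which share a library and a name. Of the 15 neutrophil markers used in naming, cluster 3 had 8 at 20 CPM or more, at a summed 3744 CPM. Cluster 4 had 15 (10286 CPM) and macrophage-like cells had 12 (2775 CPM). In cluster 3 Csf3r and Il1r2 were at 642 and 974 CPM, but Retnlg was at 1.89 CPM and Ly6g at 0.945 CPM. The name of cluster 3 thus rests on fewer markers than that of cluster 4. The lowest S100a9 levels were 12.4 CPM in megakaryocyte-like cells and 16.7 CPM in B lineage-like cluster 16.

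Within a cluster the pair was unevenly held. In cluster 4 the 2 genes made up 14.9% of all UMIs, and single cells ranged from 0% to 42.8% with a median of 11.7%. Cluster 5 was more even, with a median of 19.7% without coculture and 22.7% in the 28 coculture cells, and 135 of its 136 cells without coculture were over 1%. Coculture cluster 2 had a median of 3.02%, and 328 of its 476 cells were over 1%. In cluster 3 the median was 0.0379%, and 45 of 305 cells were over 1%.

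**Figure D2:**
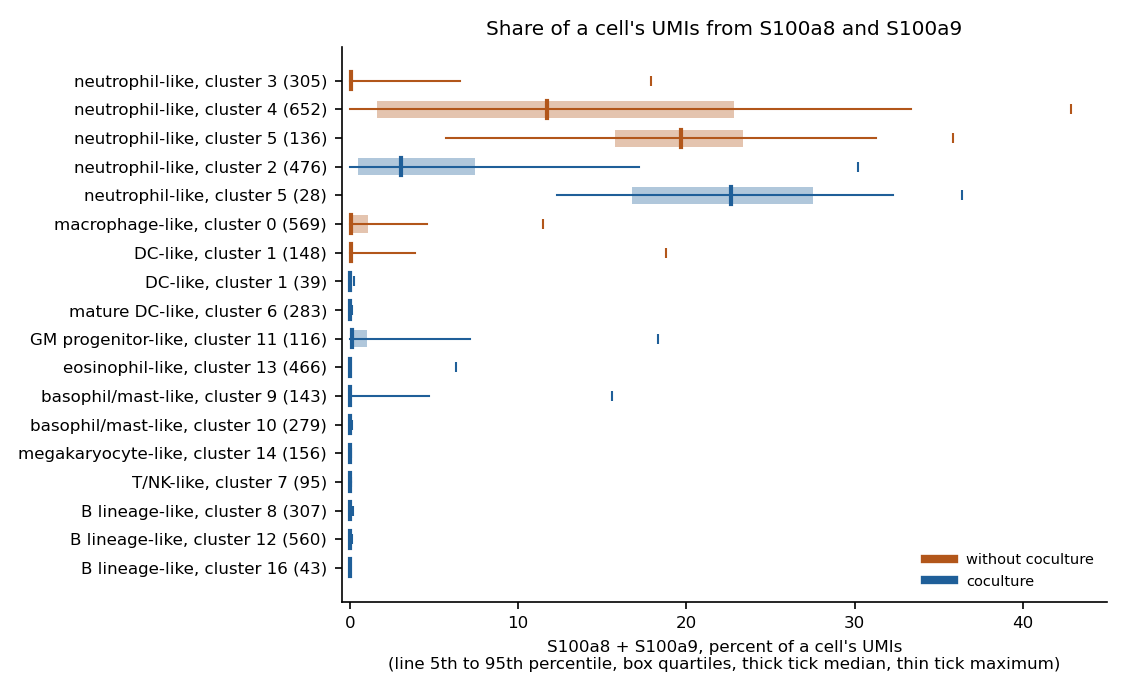
Percent of each cell's UMIs that came from S100a8 and S100a9, by cluster and library. Lines run from the 5th to the 95th percentile, boxes cover the quartiles, and ticks mark the median and the maximum. Cells of cluster 5 are high as a body, cluster 4 spreads from 0% to 42.8%, and most cells outside the neutrophil-like clusters are near 0%.

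A small share of cells held most of the pair in several clusters. The top 10% of cells held 86.4% of its UMIs in neutrophil-like cluster 3, 36.7% in cluster 4 and 39.5% in coculture cluster 2, against 63.2% in macrophage-like and 67.1% in progenitor-like cells. In the macrophage-like cluster 147 of 569 cells had over 1% of their UMIs from the pair and held 90.5% of its UMIs there. Those 147 cells also had more UMIs (median 36190 against 22364 in the other 422) and more neutrophil transcripts. Of the 15 neutrophil markers 14 were at 20 CPM or more in them, at a summed 4487 CPM, against 8 markers and 1928 CPM in the other cells. Ngp, a secondary granule gene, was at 909.8 CPM in the 147 cells and 65.4 CPM in the others, and S100a8 was at 864 CPM in the others. No marker of the list was at 0 in either set. The part of neutrophil transcripts in these levels was not tested. No doublets were taken out.

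The same held in smaller clusters. In basophil or mast cell-like cluster 9, 19 of 143 cells held 99.2% of the pair's UMIs. S100a8 was at 62.4 CPM and S100a9 at 26.4 CPM in the other 124 cells. The 19 cells had 13 of the 15 neutrophil markers at 20 CPM or more (6242 CPM summed). The other 124 had 4 such markers (270.1 CPM summed), with Ltf, Ly6g, Cd177 and Asprv1 at 0. In the eosinophil-like cluster 4 of 466 cells held all but 11.5% of the pair's UMIs, and S100a8 was at 37.5 CPM in the remaining 462. Those 462 had 2 neutrophil markers at 20 CPM or more and 469 CPM summed, mostly Ngp at 359 CPM. The part of neutrophil transcripts in the levels of these 2 clusters was not tested either.

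In the progenitor-like cluster 29 of 116 cells held 88.9% of the pair's UMIs, with S100a8 at 19000.3 CPM and S100a9 at 23109.8 CPM. The 29 cells had 8 of the 15 neutrophil markers at 20 CPM or more and 10060.4 CPM summed, against 4 markers and 3364 CPM in the other 87. Ngp was at 8929 and 3068 CPM, Camp at 379.6 and 3.30 CPM, Lcn2 at 288 and 123 CPM and Ltf at 16.4 and 0 CPM. Of the same 15 markers Mmp8, Mmp9, Ly6g and Asprv1 were at 0 in both sets, and Retnlg was at 3.65 and 2.75 CPM. Others were found, with Csf3r at 27.4 and 19.8 CPM. Over the whole cluster G0s2 was at 134 CPM, Il1r2 at 31.3 CPM, Mcemp1 at 29.1 CPM, Cxcr2 at 13.5 CPM and Cd177 at 1.69 CPM. The depth of the 29 cells (median 18790 UMIs) was below that of the other 87 (22105). The part of neutrophil transcripts in these levels was not tested.

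Lymphocytes, which do not normally make calprotectin, were taken as the reference level of the pair in the coculture library. The library without coculture had 1 T or NK cell-like and 1 B lineage-like cell, so no such reference is given for its macrophage-like and dendritic cell-like levels. B lineage-like cells of the coculture library had S100a8 at 23.5 CPM (18.7 to 29.3) and S100a9 at 25.3 CPM (20.3 to 31.2). T or NK cell-like cells had both at 31.6 CPM (11.6 to 68.7). The mature dendritic cell-like cells (26.4 and 22.1 CPM), basophil or mast cell-like cluster 10 (21.4 and 18.9 CPM) and megakaryocyte-like cells (15.4 and 12.4 CPM) were no higher. S100a8 and S100a9 in those clusters were thus not above the lymphocyte level. Whether they are background or low expression was not tested.

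Shares of cells with a transcript were compared after each cell was thinned to 2000 UMIs, which left out 140 shallower cells without coculture and 265 with it. S100a8 was then found in 78.2% of 973 neutrophil-like cells without coculture (75.5% to 80.8%) and in 89.6% of 472 with it (86.5% to 92.2%). Without thinning the shares were 82.5% and 93.3%, at median depths of 4368 and 8257 UMIs. The share ran against the summed level and no order is read from it, since thinning to 4000 UMIs gave 92.0% of 588 cells without coculture and 90.6% of 392 with it. For comparison 4.45% of 786 B lineage-like cells held it after thinning and 8.13% before, at a median depth of 2869 UMIs. The share was 52.6% in macrophage-like, 48.3% in progenitor-like and 6.25% in eosinophil-like cells, and 85.8%, 71.6% and 30.5% before thinning. Their median depths were 25262, 20460 and 17586 UMIs. Both genes of the pair were found together in 43.1% of progenitor-like cells and 0.509% of B lineage-like cells, both of the coculture library. They were found together in 40.1% of macrophage-like cells, which come from the other library and have no lymphocyte reference here.

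The balance inside the pair also differed. In neutrophil-like cells there were 0.731 S100a8 UMIs per S100a9 UMI without coculture and 1.11 with it. Clusters 4 and 5 of the first library had 0.747 (0.743 to 0.752) and 0.699 (0.694 to 0.703), but cluster 3 had 1.39 (1.34 to 1.45). Coculture cluster 2 had 1.22 (1.21 to 1.23), and the 28 coculture cells of cluster 5 had 0.801 (0.789 to 0.814). Both libraries therefore held neutrophil-like clusters on either side of 1, which without coculture rests on cluster 3 alone. In that cluster 31 of 305 cells held 86.4% of the pair's UMIs, so its interval understates the error. The progenitor-like cells were at 0.795 (0.776 to 0.815), near the coculture cells of cluster 5.

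**Figure D3:**
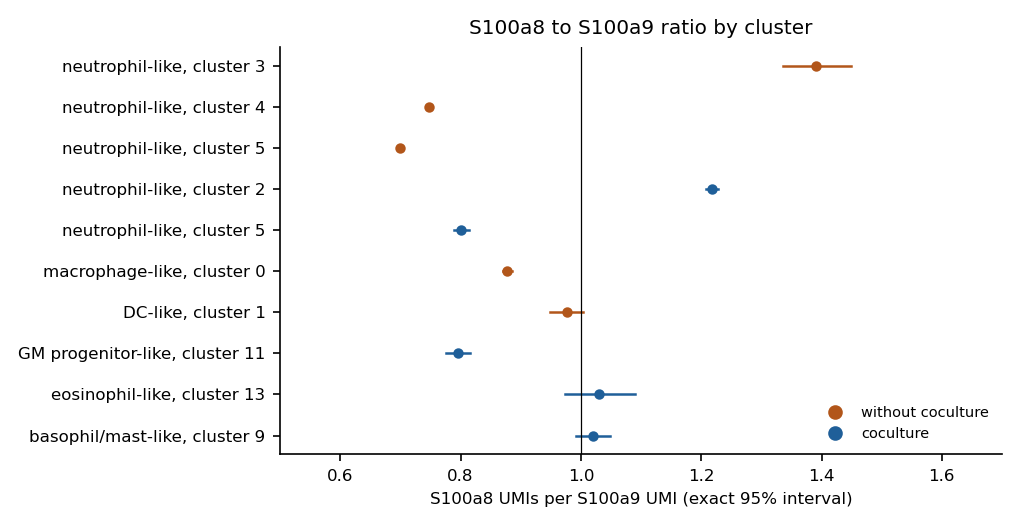
S100a8 UMIs per S100a9 UMI in each cluster with at least 100 UMIs of the pair, with exact 95% intervals and a line at equality. The granule-rich cluster 5 of both libraries, cluster 4 and the progenitor-like cells lie between 0.699 and 0.801, and clusters 2 and 3 lie above 1.

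S100a4, which binds myosin and is common in macrophages and memory lymphocytes, was ordered differently. It was highest in macrophage-like cells at 964 CPM (949.7 to 979), then in neutrophil-like cluster 3 at 833 CPM (779 to 889.6). Mature dendritic cell-like cells of the coculture had 712 CPM (674 to 752), and neutrophil-like cluster 4 had 571 CPM. Cluster 5 had 92.3 CPM without coculture and 3 UMIs in its 28 coculture cells. Coculture cluster 2 had 52.9 CPM (46.9 to 59.5), below each neutrophil-like cluster without coculture. S100a4 was at 0 UMIs in 910 B lineage-like cells and in 95 T or NK cell-like cells, with upper limits of the exact interval of 1.07 CPM and 19.4 CPM. After thinning, 82.2% of macrophage-like cells, 54.3% of mature dendritic cell-like cells, 41.1% of neutrophil-like cells without coculture and 5.93% of those with it held the transcript. The corresponding shares before thinning were 98.6%, 69.3%, 50.9% and 16.5%.

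The UMIs of S100a4 thus came from different cells in the 2 libraries. Macrophage-like cells held 79.5% of them without coculture, where that class held 64.4% of all UMIs. Mature dendritic cell-like cells held 75.0% of them with coculture, where that class held 6.38% of all UMIs. Neutrophil-like cells held 14.0% and 16.0%.

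S100a6, a partner of annexin A2 and of calcyclin-binding protein, was high in several myeloid classes, and lower in progenitor-like (519 CPM) and eosinophil-like cells (286 CPM). Neutrophil-like cluster 4 had 17441 CPM, the 28 coculture cells of cluster 5 9797 CPM, cluster 5 without coculture 7484 CPM and cluster 3 5267 CPM. Macrophage-like cells had 3671 CPM and coculture cluster 2 had 3405 CPM, and these were followed by dendritic cell-like cells without coculture at 2205 CPM. The 147 macrophage-like cells rich in the S100a8 and S100a9 pair had 5443 CPM. The other 422 had 2794 CPM, below coculture cluster 2. The same split gave 4374 and 1944 CPM in dendritic cell-like cells without coculture and 3072 and 1073 CPM in cluster 9. The part of neutrophil transcripts in these levels was not tested. Mature dendritic cell-like cells (1942 CPM, 1879 to 2006) and basophil or mast cell-like cluster 10 (1926 CPM, 1858 to 1995) did not differ beyond their intervals. Cluster 10 had this level while S100a8 was no higher there than in lymphocytes. In the B lineage-like clusters S100a6 was at 75.1 CPM in cluster 12, 12.9 CPM in cluster 8 and 1.86 CPM in cluster 16. A single UMI was found in the 95 T or NK cell-like cells.

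S100a10, the annexin A2 partner, ran in another order. Basophil or mast cell-like cluster 10 was highest at 1442 CPM (1383 to 1502), followed by the 39 dendritic cell-like cells of the coculture at 1055 CPM (972 to 1143). Macrophage-like cells (812 CPM, 799 to 825), coculture cluster 2 (792 CPM, 768 to 817) and cluster 9 (781 CPM, 745 to 819) overlapped in their intervals. Its level did not follow that of S100a8 in either direction. The lowest levels were 47.9 CPM in cluster 5 without coculture, 106 CPM in progenitor-like cells, 159 CPM in the 28 coculture cells of cluster 5 and 195 CPM in cluster 4. These clusters held S100a8 at 4857 CPM or more, but so did macrophage-like cells (5303 CPM) and coculture cluster 2 (23203 CPM). Eosinophil-like cells (219 CPM of S100a10) and B lineage-like cluster 12 (227 CPM), both poor in S100a8, came next after cluster 4. Lymphocytes also held this gene, with 299.7 CPM in B lineage-like cells (282 to 319) and 368 CPM in T or NK cell-like cells (287 to 465).

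S100a11, the annexin A1 partner, varied least. Clusters 3, 4 and 2 had 2025 CPM, 1900.2 CPM and 1899.9 CPM, and the last 2 did not differ beyond their intervals. Mature dendritic cell-like and dendritic cell-like cells of the coculture were at 1398 and 1328 CPM, cluster 5 without coculture at 842 CPM and macrophage-like cells at 453 CPM. The lowest value was 103 CPM in megakaryocyte-like cells. Among clusters with at least 30 cells of a library, which leaves out the 28 coculture cells of cluster 5, the ratio of highest to lowest level was 19.7 for S100a11 and 30.1 for S100a10, against 7661 for S100a8. The ratio for S100a8 is imprecise. Its lowest level, in the 43 cells of B lineage-like cluster 16, is 5 UMIs (3.02 to 21.7 CPM).

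**Figure D4:**
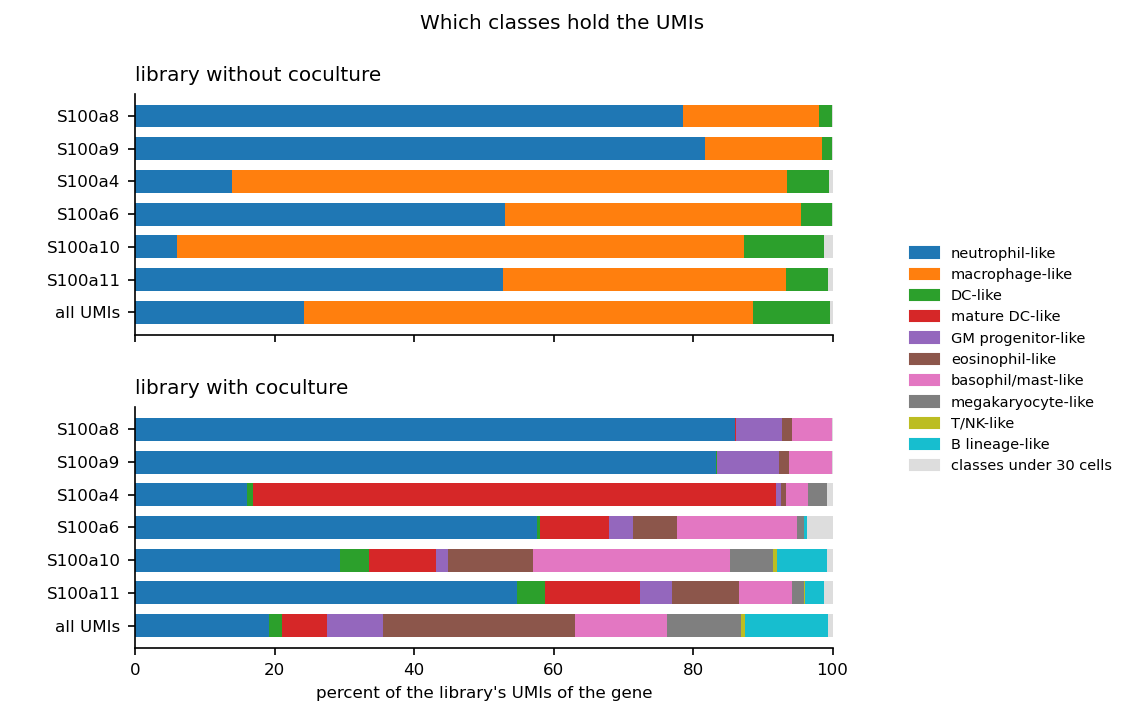
Percent of each gene's UMIs held by each class of cells in the library without coculture (top) and with it (bottom), with the split of all UMIs as the last bar. Neutrophil-like cells hold 78.6% and 86.1% of S100a8, macrophage-like cells hold 79.5% of S100a4 without coculture, and mature dendritic cell-like cells hold 75.0% of it with coculture.

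The neutrophil-like classes were compared between the libraries. Of the 6 genes 4 were lower in the coculture library, where 7.02% of 7720 genes were lower, and 1 was higher, where 9.94% were. The median log2 ratio of the 6 was -1.39, against -0.04 over all genes measured. S100a8 was at 57048 CPM without coculture and 26932 CPM with it, a log2 ratio of -1.08 (-1.09 to -1.07) that lies just past the 2-fold line. It did not reach 2-fold at clustering resolution 1.2 (-0.86) or without the deepest 5% of cells (-0.65). S100a9 was at 78068 and 24230.4 CPM (log2 ratio -1.69, -1.70 to -1.68). S100a6 was at 12203 and 3743 CPM (log2 ratio -1.71, -1.73 to -1.68), and S100a4 at 451 and 50.6 CPM (log2 ratio -3.16, -3.34 to -2.98). S100a10 went the other way, at 160.4 and 758 CPM, 4.72-fold higher (4.42 to 5.05). After thinning, 21.2% of neutrophil-like cells held S100a10 without coculture and 64.6% with it, against 32.6% and 83.5% before thinning. B lineage-like cells, which are not free of this gene, were at 35.5% and 50.5%. S100a11 was at 1564 and 1875 CPM (log2 ratio 0.26).

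The class is made of different clusters in the 2 libraries, and the values depend on which are set side by side. Against cluster 4, coculture cluster 2 had 4 of 6 genes lower (8.08% of genes) and 1 higher (13.1%), with log2 ratios of -1.45 for S100a8 and -2.16 for S100a9. Against cluster 5 it had 3 lower (8.02%) and 2 higher (24.9%). Against cluster 3 it had only S100a4 lower (22.0%) and 3 higher (11.0%), with S100a8 4.40-fold and S100a9 5.03-fold higher. The ratios of S100a8 and S100a9 thus turned direction with the cluster compared. This turn rests on cluster 3, the neutrophil-like cluster with the fewest neutrophil markers at 20 CPM or more. S100a4 was lower against clusters 3 and 4 (log2 ratios -3.98 and -3.43) and at -0.80 against cluster 5. S100a10 was higher against all 3, by 2.75-fold, 4.06-fold and 16.5-fold.

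Cluster 5 held 136 and 28 cells, and each other neutrophil-like cluster had at most 3 cells of one of the libraries. Its coculture cells had log2 ratios of 0.40 for S100a8 (0.38 to 0.41), 0.20 for S100a9 (0.18 to 0.21) and 0.39 for S100a6 (0.33 to 0.45), all in the direction opposite to that of the whole class. S100a10 was 3.31-fold higher (2.30 to 4.70) and was the only one of the 6 called higher (12.7% of genes). S100a4, with 208 and 3 UMIs, was 9.12-fold lower (3.08 to 44.6) and the only one called lower (17.1%). The 28 cells are under the minimum of 30 cells set for a described cluster and were added after the values were seen.

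**Figure D5:**
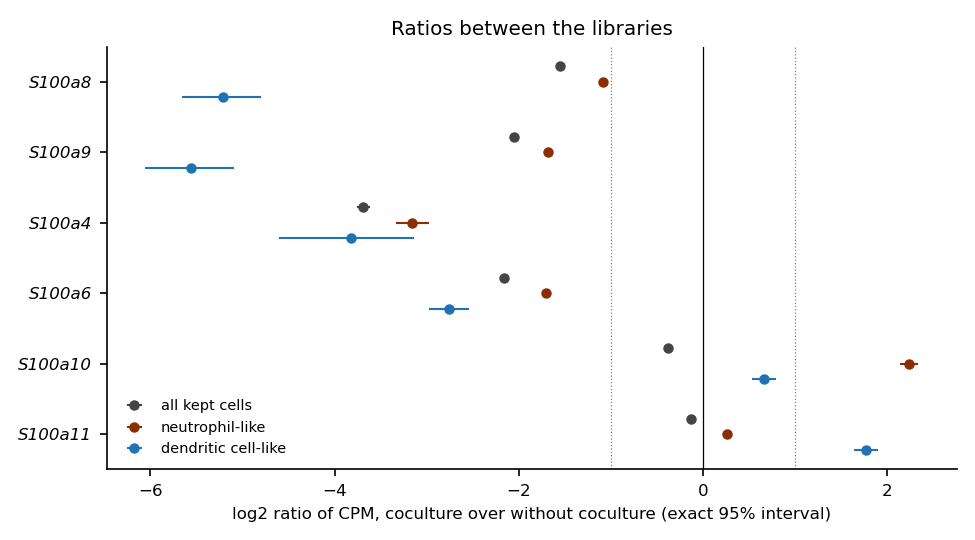
Log2 ratio of CPM, coculture over without coculture, for the 6 genes over all cells, neutrophil-like cells and dendritic cell-like cells, with exact 95% intervals. Dotted lines mark 2-fold. S100a8, S100a9, S100a4 and S100a6 lie at or beyond -1.08 in all 3 comparisons, and S100a10 lies at -0.38 over all cells but 2.24 in neutrophil-like cells.

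In dendritic cell-like cells, 148 without coculture and 39 with it, 4 of the 6 were again lower (10.2% of 8354 genes) and 1 was higher (15.6%). This cluster was led by Ccl4, Asgr2 and Ptx3. It had 5 dendritic cell markers at 2-fold or more, and 2, Ccl17 and Mgl2, were among its 10 leading genes. Whether its cells from the 2 libraries are of 1 type was not tested. S100a6 was at 2205 and 326 CPM (log2 ratio -2.76, -2.98 to -2.54) and S100a4 at 427 and 30.1 CPM (log2 ratio -3.82, -4.61 to -3.14). S100a11 was the gene that was higher, at 390 and 1328 CPM (log2 ratio 1.77, 1.63 to 1.90), and S100a10 was at 667 and 1055 CPM (log2 ratio 0.66). S100a8 was at 3093 and 83.3 CPM, a log2 ratio of -5.21. In the first library 19 of the 148 cells held 93.3% of the pair's UMIs, with 12 of 15 neutrophil markers at 20 CPM or more and 3562 CPM summed. The other 129 cells had 4 such markers and 485 CPM summed. In them S100a8 was at 341 CPM, S100a9 at 128 CPM and S100a6 at 1944 CPM. None of the 39 coculture cells was over 1%. They had 4 such markers at 997 CPM summed, mostly Il1r2 at 716 CPM, with Camp, Ngp, Ly6g and Asprv1 at 0. The part of neutrophil transcripts in the S100a8, S100a9 and S100a6 ratios was not tested.

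The gene most like S100a8 over 17 cluster sums, among 5942 genes, was S100a9 (Pearson correlation of log2(CPM + 10) of 0.998). The 5 genes outside the S100 family nearest to S100a8 were Mtus1 (0.960), Mgst1 (0.951), Lcn2 (0.940), Wfdc21 and Hp, and the same 5 were nearest to S100a9. S100a6 was nearest to Anxa2 (0.945), which encodes its partner annexin A2, followed by Mapk3, Vill, Cebpb (0.912) and Plin2. S100a4 was nearest to Slc6a6 (0.950), Ptafr, Tnfrsf1b, Iscu and Efhd2. S100a11 was nearest to the decoy receptor gene Il1r2 (0.959), Ostf1, Rhog, Mcemp1 and Rab11fip1. S100a10 had no near neighbour, with Rgs1 highest at 0.791, then Luzp1, Prnp, Rps6ka3 and Galnt7. Between members, S100a8 was at 0.78 with S100a6, 0.53 with S100a4 and -0.35 with S100a10. S100a4 and S100a6, which lie on either side of S100a5, were at 0.77, and S100a10 and S100a11 at 0.10. These points share libraries and depth, and Lcn2, Il1r2 and Mcemp1 are among the markers used to name clusters.

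Of 10 receptor genes for released S100 proteins, 9 reached 10 CPM over all cells, 4 were lower (11.7% of all genes) and 2 higher (12.7%) in the coculture library. Their median log2 ratio was -0.68, against 0.03 over all genes. Lower were Cd36, a scavenger receptor (20.3 and 2.99 CPM), Cd33 (212 and 48.2 CPM), Tlr4, the receptor of the pair (65.8 and 18.7 CPM), and its adaptor Myd88 (68.3 and 26.4 CPM). Higher were Cd69 (11.1 and 60.8 CPM) and Bsg, which encodes the S100A9 receptor basigin (274 and 651 CPM). In neutrophil-like cells none of 8 measured was lower (7.02% of all genes). The TLR4 co-receptor Cd14 (399 and 1259 CPM) and Bsg (211 and 636 CPM) were higher (9.94%), and the median was 0.55, against -0.04 over all genes. Tlr4 was at 70.2 CPM in coculture cluster 2 and at 118, 73.0 and 17.3 CPM in clusters 3, 4 and 5 without coculture.

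Of 15 intracellular partners, 13 were measured over all cells, 5 were lower (11.7% of all genes) and none was higher (12.7%), at a median log2 ratio of -0.90, against 0.03 over all genes. They were Ahnak, a scaffold bound by the complex of S100A10 and annexin A2 (312 and 23.5 CPM), Plaur, the urokinase receptor (389 and 76.9 CPM), Anxa5 (486 and 124 CPM), Anxa11 (93.1 and 42.0 CPM) and Anxa1, the partner of S100A11 (321 and 151 CPM). In neutrophil-like cells Anxa11 (183 and 64.4 CPM) and Anxa1 (411 and 205 CPM) were lower (7.02% of all genes) and Ppfibp1 (2.98 and 10.4 CPM) was higher (9.94%). The median of 13 was -0.32, against -0.04 over all genes. Anxa2 was at 767 CPM in coculture cluster 2 and at 989, 931 and 449 CPM in clusters 3, 4 and 5, so it did not share the higher level of S100a10 in cluster 2 over clusters 3 and 4.

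Of 10 transcription factors linked to S100a8 and S100a9, 9 were measured over all cells, with 3 lower (11.7% of all genes) and 3 higher (12.7%) at a median log2 ratio of 0.19, against 0.03 over all genes. Cebpd (133 and 44.9 CPM), Cebpb (1432 and 588 CPM) and Spi1, which encodes PU.1 (578 and 282 CPM), were lower. Cebpe, the C/EBP factor of granule formation (74.8 and 446 CPM), Klf5 (4.39 and 12.7 CPM) and Irf8 (115 and 245 CPM) were higher. Cebpe was highest in eosinophil-like cells, at 1308 CPM, where S100a8 was at 310 CPM. In neutrophil-like cells 5 of 10 were lower (7.02% of all genes), namely Cebpa (77.1 and 18.3 CPM), Cebpe (243 and 100.5 CPM), Irf7 (23.1 and 10.0 CPM), Klf5 (14.0 and 6.28 CPM) and Cebpd (235 and 110.5 CPM). Irf8 (3.87 and 83.2 CPM) and the hypoxia factor Hif1a (57.3 and 411 CPM) were higher there (9.94%), and the median was -0.99, against -0.04 over all genes.

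Of the 13 other symbols that begin with S100, 3 reached 10 CPM, and 1 of these was lower over all cells. S100a1, best known from muscle, had 297 CPM (291 to 304) in the first library and 75.5 CPM (72.4 to 78.7) in the second, a log2 ratio of -1.98. S100a13, which takes part in release of fibroblast growth factor, was at 189 and 117 CPM (log2 ratio -0.69). S100pbp, at 11.9 and 13.6 CPM, encodes a protein that binds an S100 protein and is not itself one. S100a5 had 56 and 68 UMIs in the libraries without and with coculture, S100a7a 17 and 7, S100a3 12 and 5, and S100a16 0 and 22. S100a2, S100a14 and S100b had at most 6 UMIs in either library. S100g and S100z had 0 in both, with upper limits of the exact interval of 0.133 CPM without coculture and 0.127 CPM with it. The pseudogene S100a11-ps had 0 and 8 UMIs, and reads shared with S100a11 cannot be told apart.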

How the data were processed

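The authors deposited unnormalized UMI counts, 1 sparse matrix of genes by barcodes for each library. Cell Ranger, bcl2fastq and the build mm10 are named for the reads, per the submitters' processing notes, with software version 3.1.0 per the file headers. Annotation release and cell calling rule: not given in the sources used here.

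Barcodes were kept at 500 genes or more and no more than 10% mitochondrial UMIs, which left out 363 of 2180 without coculture and 129 of 3134 with it. The deposited totals were 28294186 and 29217182 UMIs. Scrublet called 0 and 5 barcodes, 0.104% of those kept, and doublets were not removed. How complete these calls are was not tested. Counts were scaled to 10000 per cell and log-transformed, and cells were clustered in scanpy 1.11.5 with 2000 variable genes, 30 components, 15 neighbours and Leiden (igraph 0.11.9) at resolution 0.8, with 54 listed genes kept out. This gave 17 clusters, named from 16 marker sets. Naming used the set of highest mean log2 fold over other cells, required 3 markers at 2-fold or more, and was refused where another set had more markers among the 10 leading genes. Stromal-like cells (8) were not described.

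UMIs were summed over cells because cells are not replicates. CPM carries exact Poisson intervals, ratios exact conditional binomial intervals and shares Clopper-Pearson intervals. No test was made with 1 library per group. The code for ratios, their intervals and the 2-fold calls was run on simulated Poisson counts with known changes. Those counts lack the uneven spread of UMIs between cells, so the run says nothing of that error. TMM factors came from edgeR 4.0.16. Of the gene identifiers 47224 were in GENCODE M21.

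The members, gene lists and alternatives were chosen with earlier results of these data known. Named genes were all members, every other S100 gene at 10 CPM or more, list genes past 2-fold (at most 6 per list) and the 5 genes most like each member among those of at least 50 CPM in a cluster. Tlr4, Anxa2, Cebpe and marker genes given by cluster beside a member were chosen after their values were seen.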

Additional observations from a re-analysis of the deposited data

Results flagged for a closer look

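S100a1, which was 3.94-fold lower over all cells of the coculture library, had opposite signs in the 2 classes compared between the libraries. Its log2 ratio was 0.52 in neutrophil-like cells and -0.87 in dendritic cell-like cells, and neither reached 2-fold. The difference between the classes was not tested, since each group has 1 library.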

How the results depend on the processing

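No paired analysis was possible because each group has 1 library. Under 9 alternatives over all cells the log2 ratio ranged from -2.38 to -1.52 for S100a8, -2.82 to -2.02 for S100a9, -3.83 to -3.14 for S100a4, -2.88 to -2.13 for S100a6, -0.52 to 0.37 for S100a10 and -0.99 to -0.12 for S100a11. Among the 9, the minimum of 50 CPM and that of 10 UMIs set only which genes are measured and cannot move a ratio. Leaving out Scrublet calls removed only 0 and 5 barcodes. Under 6 alternatives of clustering or cell choice, S100a10 in neutrophil-like cells ranged from 1.92 to 2.28, S100a4 from -3.43 to -3.13, S100a9 from -1.73 to -1.19 and S100a8 from -1.11 to -0.65. Among comparisons of single clusters, added after the values were seen, coculture cluster 2 over cluster 3 reversed S100a8 (2.14) and S100a9 (2.33) and gave 1 member lower and 3 higher, where the whole class gave 4 and 1. Cluster 2 over cluster 5 gave 2 higher. Cluster 5 of both libraries reversed S100a8 (0.40), S100a9 (0.20) and S100a6 (0.39) and gave 1 lower. With a minimum of 10 UMIs in place of 10 CPM, 3 other S100 genes were lower and 1 higher (1 and 0 before), and over all genes 1898 were lower and 3824 higher. A minimum of 50 CPM gave 513 and 403. The mean of per-cell CPM left 3 list genes higher in place of 5. The S100a8 to S100a9 ratio in neutrophil-like coculture cells was 1.10 at resolution 1.2 and 1.06 without the deepest 5% of cells, against 1.11, and without coculture it was 0.725 under a filter of 1000 genes and 5% mitochondrial UMIs, against 0.731. The share of neutrophil-like cells with S100a8 without coculture was 74.3% at 1000 UMIs, 92.0% at 4000, 82.5% unthinned and 69.6% at 3 UMIs or more, against 78.2%. With coculture it was 90.6% at 4000, so the order of the libraries turned there, 93.3% unthinned and 85.2% at 3 UMIs or more, against 89.6%. At resolution 1.2, 113 coculture cells were macrophage-like in place of 1. The cause of these shifts was not tested. Depth limits S100a4 in cluster 5 of the coculture, which rests on 3 UMIs.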

Other observations

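The barcodes left out of the analysis held the same genes. The 363 without coculture had a median of 1085 UMIs, with S100a8 at 12134 CPM (11834 to 12441), S100a9 at 13980.1 CPM, S100a6 at 4395 CPM, S100a4 at 391 CPM, S100a11 at 481 CPM and S100a10 at 108 CPM. The 129 of the coculture library had a median of 755 UMIs, with S100a8 at 7238 CPM (6779 to 7719), S100a9 at 7988 CPM, S100a6 at 547 CPM, S100a11 at 469 CPM and S100a10 at 164 CPM, and 3 UMIs of S100a4. S100a8 and S100a9 in these barcodes were lower than in the kept cells without coculture and higher than in the kept cells with coculture.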
